A study of Mus musculus with 12 samples.

Results

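Tmem100 and 9 genes of endothelial BMP-ALK1 signalling were followed across 12 RNA-seq libraries of mouse heart cells. The genes are the ligand Bmp10, the receptors Acvrl1 (which encodes ALK1), Eng (endoglin) and Bmpr2, the inhibitory Smad6 and Smad7, and the targets Tmem100, Id1, Id2 and Id3. They are 10 of 22584 genes in the deposited count table, picked by symbol, and all 10 passed the filter on low counts. Tmem100 was picked because its level was high in 1 of the 4 groups and low in another, so its values are given as a description with no test.

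The cells were cardiomyocytes isolated from the hearts of wild-type C57BL6 mice, and polyadenylated RNA was sequenced. There were 4 groups of 3 libraries. The sham saline group had a sham operation and saline injections, and the sham JV001 group had the same operation with injections of JV001, an agent the labels name only by this code. The CKD (chronic kidney disease) saline group received AngII, a high salt diet and uninephrectomy, the removal of a kidney, with saline, and the CKD JV001 group received the same model with JV001. The labels give 12 weeks for both sham groups and the CKD JV001 group, state no duration where CKD was paired with saline, and give neither age nor sex. They do not say that the libraries of a group came from separate mice. The p-values therefore reflect the spread between libraries alone, which may be technical.

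BMP9 and BMP10 are circulating ligands that bind a complex of ALK1, BMPR2 and the co-receptor endoglin on endothelial cells. The activated receptor phosphorylates SMAD1 and SMAD5, which enter the nucleus with SMAD4 and switch on genes that include the ID family, SMAD6, SMAD7 and TMEM100. SMAD6 and SMAD7 then dampen the receptor, and ID proteins hold back basic helix-loop-helix transcription factors. Loss of ALK1 or endoglin causes hereditary haemorrhagic telangiectasia, and loss of BMPR2 is a cause of pulmonary arterial hypertension. In the adult heart, BMP10 is made mainly by atrial cardiomyocytes. TMEM100 is a small transmembrane protein that endothelial cells need for the shaping of arteries.

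BMP-activated SMADs bind GC-rich elements, of which GGCGCC (its own reverse complement) and GGAGCC (read from the other strand as GGCTCC) were searched on both strands of the 250 bases before the RefSeq start site (build GRCm38.p6). The promoter table matched 6 of the 10 genes, all but Acvrl1, Smad7, Tmem100 and Id1. The Smad6, Id2 and Id3 promoters are shown because these are the target and feedback genes in which an element was found. The capitals mark the elements. Smad6 lies at chr9:64022060-64022309 on the minus strand, Id2 at chr12:25096093-25096342 on the minus strand and Id3 at chr4:136143572-136143821 on the plus strand, and each is written on the strand of its gene.
Smad6: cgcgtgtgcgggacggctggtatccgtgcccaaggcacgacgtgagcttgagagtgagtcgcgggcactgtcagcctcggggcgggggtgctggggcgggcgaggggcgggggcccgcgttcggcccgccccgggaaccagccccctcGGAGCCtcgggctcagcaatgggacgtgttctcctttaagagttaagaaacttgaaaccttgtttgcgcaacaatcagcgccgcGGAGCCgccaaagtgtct
Id2: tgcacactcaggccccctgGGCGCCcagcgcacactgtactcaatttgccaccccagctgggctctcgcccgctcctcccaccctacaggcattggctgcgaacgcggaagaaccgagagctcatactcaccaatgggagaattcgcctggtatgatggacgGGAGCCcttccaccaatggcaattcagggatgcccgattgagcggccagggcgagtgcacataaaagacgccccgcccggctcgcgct
Id3: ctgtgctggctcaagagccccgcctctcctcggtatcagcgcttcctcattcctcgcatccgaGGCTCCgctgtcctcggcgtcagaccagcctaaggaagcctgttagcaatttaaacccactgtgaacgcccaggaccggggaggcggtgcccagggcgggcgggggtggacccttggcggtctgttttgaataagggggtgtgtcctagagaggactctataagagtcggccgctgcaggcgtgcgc

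The Smad6 stretch held GGAGCC with its first base at -102 and -18 (the base before the start is -1), the Id2 stretch held GGCGCC at -231 and GGAGCC at -88, and the Id3 stretch held GGCTCC at -187. Bmpr2 held GGCGCC at -105, and the Bmp10 and Eng stretches held neither element. Of 27025 promoters in the table, 9.54% held GGCGCC and 25.7% held GGAGCC or its complement in the same window. By their letters the 2 elements cannot overlap. A match is a run of letters and not a measured binding site.

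The libraries held between 25.2 and 37 times 1e6 counts each, and normalised expression is given in CPM, counts per 1e6 counts after scaling with TMM factors. Cardiomyocyte markers, not all specific to the ventricle, were abundant in every library. The sum of 10 genes ran from 26880 to 106100 CPM, led by Myh6 and Atp2a2. RNA of other heart cells was present as well. The sum of 16 general endothelial markers, led by Kdr and Cdh5, was 550, 771 and 1933 CPM with saline and 1409 to 1678 with JV001 in sham mice, and 1106, 1137 and 3743 with saline and 2896 to 3921 with JV001 in CKD mice, and none of the 16 was at 0 throughout a group. CKD saline library 3, CKD JV001 library 3 and, by its endothelial and atrial levels, sham saline library 1 stood apart from the rest of their groups. By rank correlation over genes, CKD saline library 3 was nearest to a CKD JV001 library, CKD JV001 library 3 was nearest to CKD saline library 3, and sham saline library 1 was nearest to a sham JV001 library. Sham JV001 library 3, which did not stand apart in these levels, was also nearest to another group, a CKD saline library. In a bulk sample, fewer cells of a type and less RNA per cell cannot be told apart.

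Tmem100 was highest in sham JV001 and lowest in the 2 CKD groups. Its libraries read 14.6, 13.4 and 14.2 CPM with saline and 31.5, 22.7 and 27.7 with JV001 in sham mice, and 12.1, 13.0 and 9.77 with saline and 10.4, 9.34 and 10.2 with JV001 in CKD mice. All 3 sham JV001 libraries lay above the other 9, and the CKD JV001 and CKD saline ranges overlapped. The group means were 14.1 ± 0.639, 27.3 ± 4.41, 11.6 ± 1.66 and 9.97 ± 0.556 CPM (SD, n = 3 each, in the same order), from 246 to 1017 reads per library.

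The order of the Tmem100 means was CKD JV001, CKD saline, sham saline and sham JV001. The first neighbours overlapped, and the next pair was separated by a narrow gap, from 13.0 CPM in the highest CKD saline library to 13.4 in the lowest sham saline library. In the edgeR fit over all groups, sham JV001 exceeded sham saline by 0.95 on the log2 scale (SE 0.164), 1.94-fold. CKD JV001 against sham JV001 was -1.45 (SE 0.166), a ratio of 0.366. Against CKD saline its difference was -0.22 (SE 0.164) in counts, with overlapping groups, and -0.03 on the log2(FPKM + 1) scale. CKD saline against sham saline was -0.28 (SE 0.164), and the JV001 difference in CKD minus that in sham was -1.18 (SE 0.232). On the log2(FPKM + 1) scale this last value was -0.88, and CKD JV001 against sham JV001 was -1.20.

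**Figure D1:**
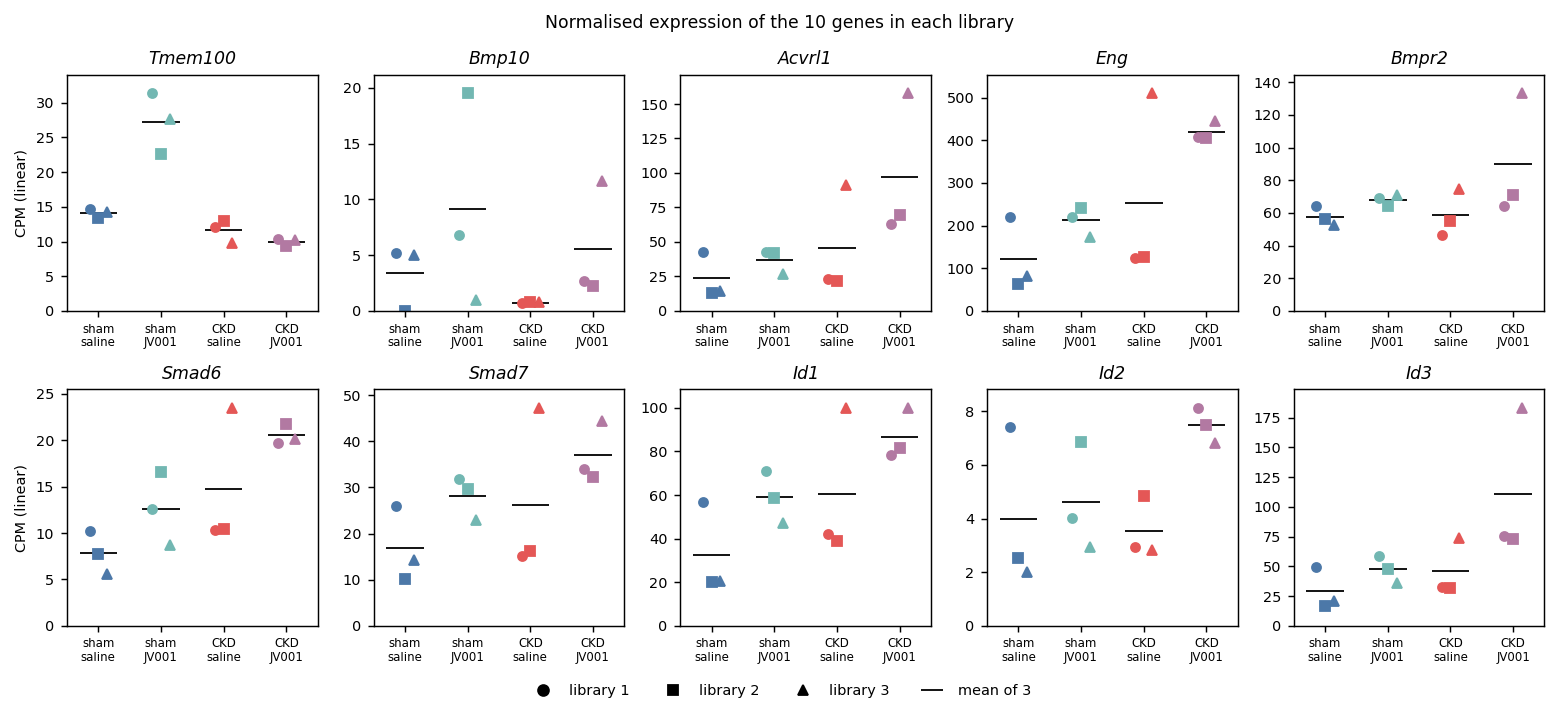
Normalised expression (CPM, linear axis from 0) of the 10 genes in each of the 12 libraries. Symbols mark libraries 1 to 3 of a group and the horizontal line marks the mean of 3. Tmem100 is high in all 3 sham JV001 libraries, between 22.7 and 31.5 CPM, while Eng and Acvrl1 are high in CKD saline library 3 and in CKD JV001.

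Bmp10, the ligand, varied most of the 10 genes from library to library. It read 5.21, 0 and 4.98 CPM with saline and 6.83, 19.6 and 0.969 with JV001 in sham mice, and 0.666, 0.825 and 0.755 with saline and 2.69, 2.26 and 11.6 with JV001 in CKD mice. The 0 reads of sham saline library 2 allow up to 0.0811 counts per 1e6 counts by counting error alone, before scaling with the TMM factor. The CKD saline libraries were low and close together at 18 to 25 reads, whereas the sham groups overlapped each other and the CKD JV001 group.

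The difference of CKD JV001 from CKD saline in Bmp10 was 2.88 on the log2 scale (SE 1.36, edgeR adjusted p = 0.281), with all 3 CKD JV001 libraries above all 3 of CKD saline. CKD saline against sham saline was -2.17 (SE 1.34, edgeR adjusted p = 0.941). Neither passed the threshold of 0.05, and without CKD JV001 library 3 the first difference was 1.72.

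Of 8 atrial cardiomyocyte markers, 5 had their lowest group mean in CKD saline, as Bmp10 did: Nppa, Myl4, Myl7, Sln and Dkk3. Kcnj3 was lowest in CKD JV001, Kcna5 in sham saline and Nr2f1 in sham JV001. Nppa, atrial natriuretic peptide, read 2922, 356 and 1046 CPM with saline and 1048, 2329 and 628 with JV001 in sham mice, and 238, 238 and 149.5 with saline and 855, 810 and 454 with JV001 in CKD mice. Myl4, an atrial myosin light chain, read 570.0, 13.8 and 161 CPM with saline and 176, 388 and 96.5 with JV001 in sham mice, and 25.2, 22.8 and 13.7 with saline and 66.8, 70.6 and 89.7 with JV001 in CKD mice. The library with 0 Bmp10 reads had the lowest mean of the 8 atrial markers, 3.55 log2 CPM, and the library with the most Bmp10 had 6.58, second to 7.16 in sham saline library 1. CKD JV001 library 3, with 11.6 CPM of Bmp10, had the highest mean of its group, 5.58 against 5.29 and 5.23, and the lowest Nppa of its group. Of the 8 atrial markers, 0 passed in any comparison. The summed atrial level ranged from 456 to 4408 CPM with saline and 953 to 3290 with JV001 in sham mice, and 289 to 364 with saline and 934 to 1097 with JV001 in CKD mice. The part of atrial RNA in the Bmp10 values was not tested.

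**Figure D2:**
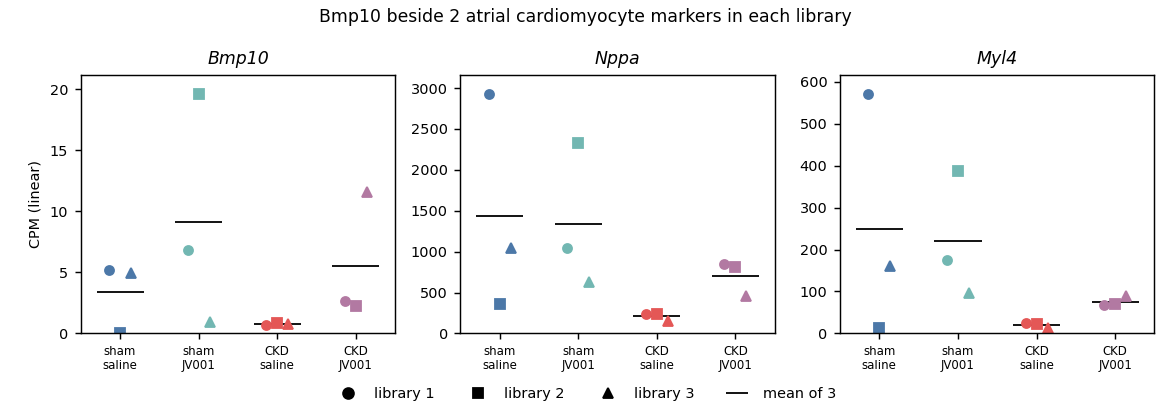
Bmp10, Nppa and Myl4 in each library (CPM, linear axes from 0), with library symbols and the mean of 3 as a line. The CKD saline libraries are low in all 3 genes, and sham saline library 2 has 0 Bmp10 reads and 13.8 CPM of Myl4.

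Among the receptors, Eng was the most abundant per transcript length, with a median of 58.1 FPKM over the 12 libraries. Acvrl1 had a median of 10.7 and Bmpr2 of 5.57 FPKM. Eng, the co-receptor, read 219.8, 63.4 and 80.7 CPM with saline and 220.3, 242 and 174 with JV001 in sham mice, and 123.0, 127 and 512 with saline and 409, 405 and 445 with JV001 in CKD mice. All 3 CKD JV001 libraries lay above all sham JV001 libraries, and CKD saline library 3 was the highest of the 12.

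Acvrl1, the type I receptor, read 42.8, 13.2 and 14.5 CPM with saline and 42.8, 41.7 and 26.7 with JV001 in sham mice, and 23.2, 21.6 and 91.1 with saline and 63.0, 69.3 and 158 with JV001 in CKD mice. Library 3 was the highest of its group in both CKD groups, and every CKD JV001 library exceeded every sham JV001 library. CKD JV001 against sham JV001 was 1.39 for Acvrl1 (SE 0.629, edgeR adjusted p = 0.181) and 0.98 for Eng (SE 0.563, edgeR adjusted p = 0.262). Without CKD JV001 library 3 the Acvrl1 difference was 0.84.

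Bmpr2, the type II receptor, had the smallest SD of the 10 genes over all 12 libraries, 0.378 on the log2 CPM scale. Between libraries of a group its pooled SD was 0.343, and that of Tmem100 was smaller at 0.168. It read 63.9, 56.5 and 52.4 CPM with saline and 69.4, 64.1 and 70.8 with JV001 in sham mice, and 46.7, 55.0 and 74.6 with saline and 64.5, 70.9 and 133.6 with JV001 in CKD mice. Only CKD JV001 library 3 went beyond 74.6 CPM. The sham JV001 libraries lay above the sham saline ones by a small margin, 64.1 against 63.9 CPM, with a difference of 0.24 (SE 0.263, edgeR adjusted p = 0.9997). CKD JV001 against CKD saline was 0.61 (SE 0.263, edgeR adjusted p = 0.276) and 0.20 without CKD JV001 library 3.

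The inhibitory Smads had medians of 3.59 FPKM for Smad6 and 6.15 FPKM for Smad7, near the level of Bmpr2. Smad6 read 10.2, 7.77 and 5.60 CPM with saline and 12.6, 16.6 and 8.72 with JV001 in sham mice, and 10.3, 10.4 and 23.5 with saline and 19.8, 21.8 and 20.1 with JV001 in CKD mice. It was the only one of the 9 tested genes whose CKD saline libraries all lay above the sham saline ones, by 10.3 against 10.2 CPM at the edge. That difference was 0.91 (SE 0.351, edgeR adjusted p = 0.941), and it was 0.43 without CKD saline library 3. Smad7 read 26.0, 10.1 and 14.3 CPM with saline and 31.9, 29.6 and 23.0 with JV001 in sham mice, and 15.0, 16.3 and 47.3 with saline and 34.1, 32.3 and 44.5 with JV001 in CKD mice. Its CKD JV001 libraries lay above the sham JV001 ones by 32.3 against 31.9 CPM, a difference of 0.39 (SE 0.438, edgeR adjusted p = 0.555) that was 0.24 without CKD JV001 library 3.

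Id1 and Id3 were close to Eng in level per length, with medians of 49.2 and 50.3 FPKM, and Id2 was low at 3.22 FPKM. Id1 read 57.0, 20.2 and 20.8 CPM with saline and 71.2, 58.5 and 47.2 with JV001 in sham mice, and 42.2, 38.8 and 100.1 with saline and 78.6, 81.5 and 100.1 with JV001 in CKD mice. Id3 read 49.8, 16.4 and 21.1 CPM with saline and 58.5, 47.6 and 36.0 with JV001 in sham mice, and 32.3, 32.0 and 73.9 with saline and 75.2, 72.9 and 183 with JV001 in CKD mice. Both were high in CKD JV001 and in sham saline library 1 and CKD saline library 3 of their groups, and their CKD JV001 libraries did not overlap sham JV001. Id2 read 7.42, 2.52 and 2.00 CPM with saline and 4.02, 6.87 and 2.94 with JV001 in sham mice, and 2.92, 4.85 and 2.82 with saline and 8.14, 7.51 and 6.81 with JV001 in CKD mice. Id2 did not share the high CKD saline library 3, and its CKD JV001 libraries lay above those of CKD saline by 1.08 (SE 0.484, edgeR adjusted p = 0.277). Id3 had the smallest adjusted p of the 9 tested genes for CKD JV001 against sham JV001, at a difference of 1.22 (SE 0.503, edgeR adjusted p = 0.156), and without CKD JV001 library 3 that difference was 0.65.

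None of the 9 genes passed in any of the 5 contrasts, edgeR with Benjamini-Hochberg adjustment over 15004 genes, and the DESeq2 Wald test also called 0 of the 9. For sham JV001 against sham saline, where 0% of all genes passed, 9 of 9 log2 fold changes were positive with a median of 0.70, beside -0.00558 for all genes tested. Every adjusted p was 0.9997, and 0 of the 9 had an unadjusted p under 0.05, against 2.84% of all genes. The groups did not overlap in 1 gene, Bmpr2, and 5.69% of all genes lay above in the same way.

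For CKD JV001 against CKD saline, where 0% of genes passed, 9 of 9 were positive with a median of 0.72, beside 0.0225 for all genes. The edgeR adjusted p ran from 0.276 to 0.473. At an unadjusted p under 0.05 there were 3, Bmpr2, Id2 and Id3, against 18% of all genes. Bmp10 and Id2 were the 2 genes with no overlap, against 8.22% of all genes lying higher. Without CKD saline library 3, 5 of the 9 rose past the threshold by edgeR, beside 3287 of all genes tested (15004 with no library left out). The 5 were Eng (1.74, adjusted p = 0.0363), Acvrl1 (2.11, adjusted p = 0.0377), and Smad7, Smad6 and Id3 (adjusted p = 0.0386 to 0.0428). Without library 3 of both CKD groups 3 did, Acvrl1, Eng and Smad6, beside 3043 of all genes tested. CKD saline libraries 1 and 2, which remain there, were close to each other, with a rank correlation over genes of 0.9905. The spread of that group then rests on these libraries alone.

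For CKD saline against sham saline, where 0% of genes passed, 7 of 9 were positive with a median of 0.66, beside 0.0107 for all genes, and the edgeR adjusted p ran from 0.941 to 0.997. Smad6 was the 1 gene with an unadjusted p under 0.05, against 4.95% of all genes, and the 1 with no overlap, against 4.12% lying higher. Without CKD saline library 3 the differences of Acvrl1, Smad7 and Bmpr2 were -0.04, -0.07 and -0.16, in place of 0.95, 0.64 and 0.03. Those of Eng, Id3, Id1 and Smad6 shrank to 0.08, 0.17, 0.34 and 0.43, in place of 1.07, 0.66, 0.89 and 0.91.

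For CKD JV001 against sham JV001, where 0.02% of genes passed, 8 of 9 were positive with a median of 0.70, beside 0.0218 for all genes, and the edgeR adjusted p ran from 0.156 to 0.706. Acvrl1 and Id3 had an unadjusted p under 0.05, against 27.5% of all genes. In 6 of the 9, Acvrl1, Eng, Smad6, Smad7, Id1 and Id3, every CKD JV001 library exceeded every sham JV001 library, a state that 22.9% of all genes shared. The 3 genes counted as passing over the whole table were Cenpf (-2.08) and Tmem82 (-1.41), with an edgeR adjusted p of 0.0353 each, and Tmem100, from which nothing is read because it was chosen on this difference. Cenpf and Tmem82 are named because they passed, after their values were seen. For the interaction of CKD and JV001, where 0% of genes passed, 5 of 9 were positive with a median of 0.37, beside -0.00153 for all genes, and the edgeR adjusted p ran from 0.840 to 0.981. None of the 9 had an unadjusted p under 0.05 there, against 3.78% of all genes. These contrasts share groups, so their values do not stand apart from each other.

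**Figure D3:**
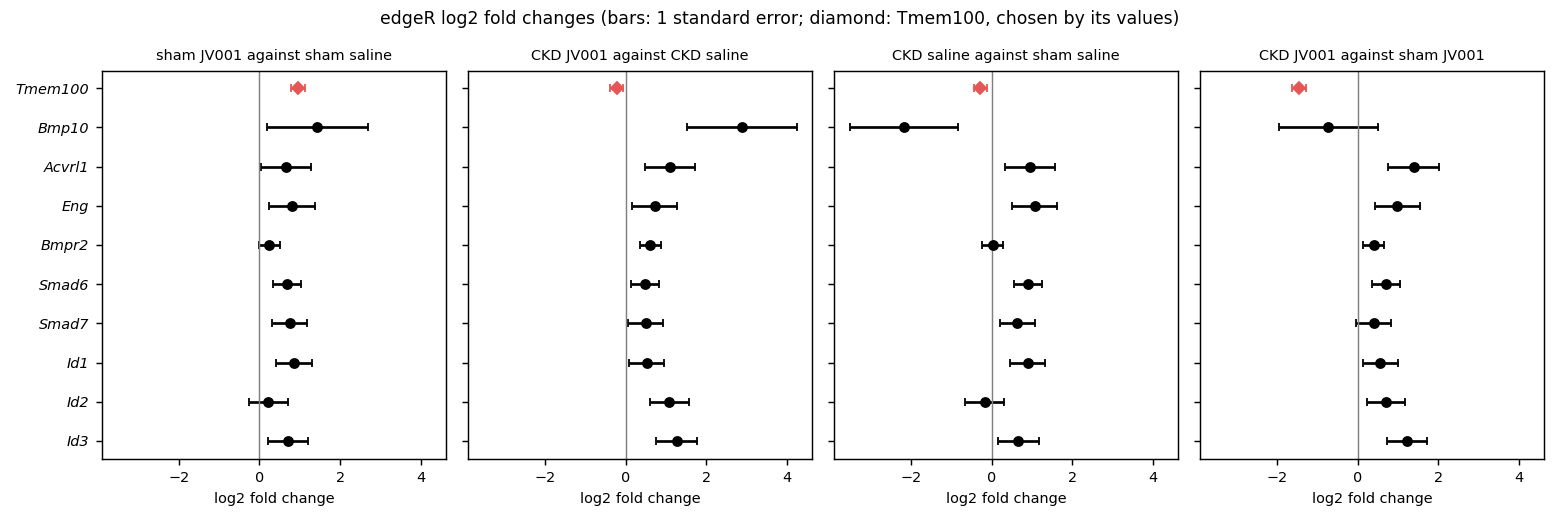
Log2 fold changes from edgeR (horizontal axis) of the 10 genes in 4 contrasts, with bars of 1 SE and a diamond for Tmem100, which was chosen by its values. The 9 other genes are all on the positive side in the 2 JV001 contrasts, with wide bars, while Tmem100 is at 0.95 in sham and at -0.22 in CKD.

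The differences of the general endothelial markers had the same sign as those of most members in each contrast. Of the 16 markers, 16 were positive for sham JV001 against sham saline (median 0.50), 15 for CKD JV001 against CKD saline (0.76), 16 for CKD saline against sham saline (0.88) and 16 for CKD JV001 against sham JV001 (1.02), with 0 passing in each by edgeR. For CKD JV001 against sham JV001, 10 of 10 fibroblast (median 1.65) and 10 of 10 macrophage markers (2.09) were positive, with 0 passing. So were 9 of 10 pericyte and smooth muscle, 8 of 8 neutrophil, 6 of 6 epicardial and 5 of 5 erythroid markers, but 2 of 8 atrial ones. Of all genes tested, 51.1% were positive there. Of the 10 cardiomyocyte markers led by Myh6, 10 were negative and 0 passed. The fibroblast sum was 310 to 1187 CPM with saline and 625 to 1305 with JV001 in sham mice, and 633 to 2485 with saline and 2901 to 3832 with JV001 in CKD mice, and the macrophage sum was 38.7 to 186, 77.98 to 253, 99.1 to 499 and 512 to 936.5 CPM in the same order. The cardiomyocyte markers led by Myh6 summed to 80180 to 106100, 87560 to 93540, 53320 to 95660 and 26880 to 58740 CPM, again in that order. Their part in the members' differences was not tested.

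The level of each gene was next expressed relative to the endothelial list, as its log2 CPM minus the mean log2 CPM of the 16 markers in the same library. The SD of Eng over the 12 libraries was 0.989 before and 0.168 after this subtraction. For Id1 it was 0.780 and 0.217, for Acvrl1 1.08 and 0.326, for Id3 0.935 and 0.321, for Smad7 0.694 and 0.294 and for Smad6 0.661 and 0.404. Counting Id2 and Bmp10, whose SD fell only slightly, 8 of the 10 genes varied less against the endothelial list than by themselves, which held for 22.8% of all genes tested. Only 0.273% of other tested genes had a smaller relative SD than Eng, 0.593% than Id1 and 1.64% than Smad7. The median relative SD over all tested genes was 0.990.

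Tmem100 and Bmpr2 varied more after the subtraction, and Id2 and Bmp10 nearly as much as before. The SD of Tmem100 was 0.590 before and 1.21 after the subtraction, and that of Bmpr2 0.378 and 0.676. That of Id2 was 0.718 and 0.712, and that of Bmp10 2.25 and 2.00. Both Bmp10 values include the library with 0 reads, which the prior count places at -4.04 log2 CPM. Of the other tested genes, 76% had a smaller relative SD than Tmem100 and 99.6% than Bmp10, but only 16.9% than Bmpr2 and 19.5% than Id2. Relative to the endothelial list, Tmem100 stood at -2.49, -0.83 and -1.19 log2 units with saline and -1.26, -1.60 and -1.15 with JV001 in sham mice, and -2.07, -1.94 and -4.05 with saline and -3.59, -3.78 and -3.95 with JV001 in CKD mice. All 3 CKD JV001 libraries were below all sham libraries on this scale, and sham JV001 lay within the range of sham saline. Tmem100 was picked as low in CKD JV001, and the subtracted mean was 6.97 to 7.30 log2 CPM there, against 4.58 to 6.37 in sham. The separation therefore comes in part from the choice, and the share of all genes lying below in this way was not counted. In sham saline, where the endothelial mean ran from 4.58 to 6.37 log2 CPM, Tmem100 stayed between 13.4 and 14.6 CPM.

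**Figure D4:**
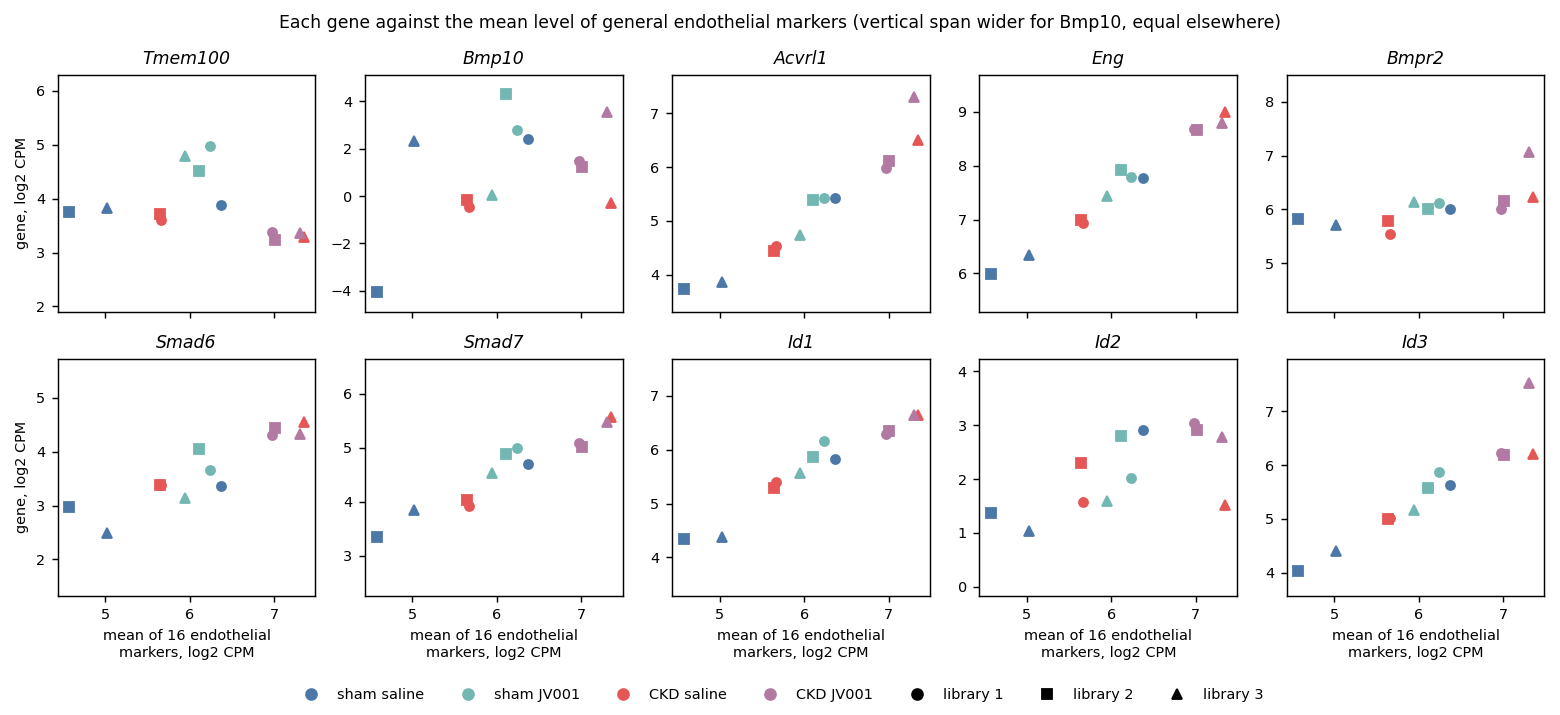
Each gene's log2 CPM (vertical axis) against the mean log2 CPM of 16 general endothelial markers (horizontal axis) in the 12 libraries, coloured by group. Eng, Id1, Smad7, Acvrl1 and Id3 climb with the marker mean, and Tmem100 does not, with its 3 sham JV001 libraries as the highest points.

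Across the 12 libraries, Pearson's r of log2 CPM between Tmem100 and the other members ran from -0.387 for Smad6 to 0.235 for Bmp10 (Spearman's rho -0.629 and 0.329), and r with Eng was -0.283. The libraries fall into the 4 groups and differ in the markers of other cells, so these are descriptions only. Of 11932 genes compared, the 5 with the highest r with Tmem100 were Tmem164 (0.943, rho 0.867), LOC118567969 (0.939, rho 0.860), Spag9 (0.927, rho 0.909), Pdk4 (0.918, rho 0.902) and Mbnl2 (0.917, rho 0.930). Pdk4 encodes a kinase that restrains pyruvate dehydrogenase. In sham mice Pdk4 read 446, 404 and 221 CPM with saline and 2287, 539.6 and 994 with JV001. In CKD mice it read 358, 375 and 220.1 with saline and 156, 147 and 272.5 with JV001. Tmem164 read 27.9 to 29.2 CPM with saline and 42.2 to 45.9 with JV001 in sham mice, and 22.4 to 26.5 with saline and 20.1 to 25.5 with JV001 in CKD mice. Both had their 3 highest libraries in sham JV001, as did Mbnl2 and LOC118567969, while Spag9 did not. The genes were picked by r with Tmem100, so a shared pattern comes from the choice. By Spearman's rho 1 of these 5 genes stayed in the top 5, and 1 stayed without library 3 of both CKD groups.

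**Figure D5:**
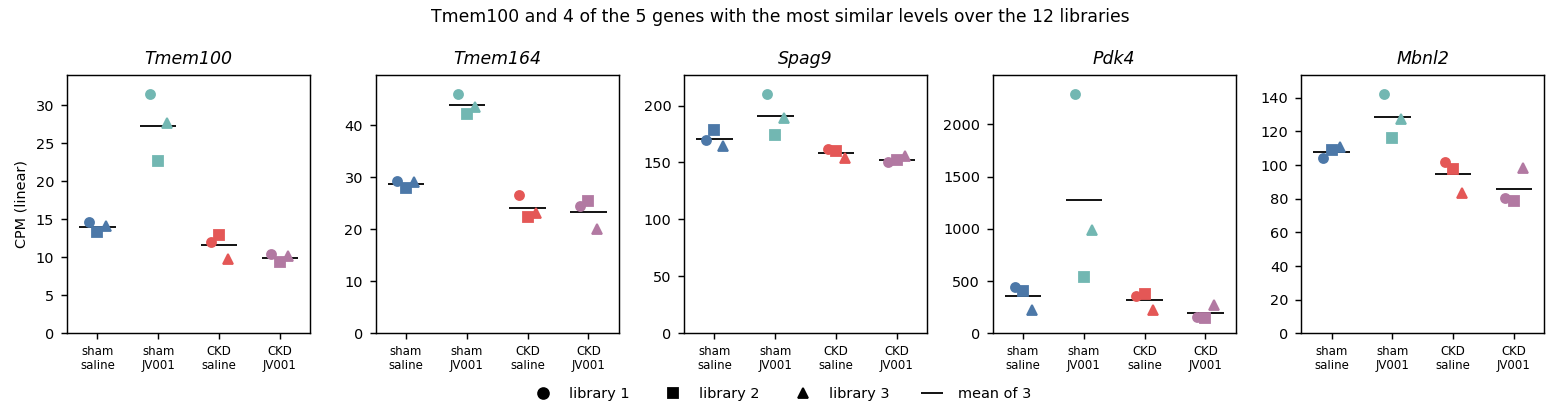
Tmem100 and 4 of the 5 genes most like it over the 12 libraries (CPM, linear axes from 0), with library symbols and the mean of 3 as a line. The sham JV001 libraries are the highest 3 for Tmem164, Pdk4 and Mbnl2, at 42.2 to 45.9, 539.6 to 2287 and 116.1 to 142 CPM. They are not the highest 3 for Spag9. The genes were picked for their likeness to Tmem100.

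The 5 genes most like Bmp10 were Luc7l (r 0.886, rho 0.762), LOC118568796 (0.879, rho 0.797), Fam172a (0.878, rho 0.846), Olfml2b (0.867, rho 0.874) and Stbd1 (0.864, rho 0.860). Of these, Olfml2b read 13.0, 6.68 and 10.1 CPM with saline and 13.1, 20.4 and 10.2 with JV001 in sham mice, and 7.03, 9.67 and 8.38 with saline and 14.7, 14.3 and 16.4 with JV001 in CKD mice. The lowest Olfml2b reading was in the sham saline library with 0 Bmp10 reads and the highest in the sham JV001 library with the most. Olfml2b was picked by its r with Bmp10, so this likeness comes from the choice. The library with 0 reads weighs on r, since the prior count places it at -4.04 log2 CPM and the next lowest library is at -0.46. By Spearman's rho 2 of the 5 stayed among the first 5.

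Of the wider pathway, 41 other genes were in the table (ligands, receptors, Smads, modulators and targets) and 38 passed the filter, of which 0 passed the test in either direction in any contrast. For CKD JV001 against sham JV001, 31 were positive and 7 negative with a median of 0.59, and 12 had an unadjusted p under 0.05, against 27.5% of all genes. In 18 of the 38 every CKD JV001 library exceeded every sham JV001 library, against 22.9% of all genes. The smallest p-values there belonged to Mgp, an extracellular protein that binds BMPs, Tgfbr2, the type II receptor for TGF-beta, and Rgma, a BMP co-receptor. Mgp read 32.6, 56.4 and 29.6 CPM in sham JV001 and 160.1, 153 and 188 in CKD JV001, a difference of 2.08 (SE 0.506, edgeR adjusted p = 0.0923). Tgfbr2 read 41.5, 46.0 and 30.9 against 73.3, 80.2 and 119.5 CPM, a difference of 1.21 (SE 0.305, edgeR adjusted p = 0.0937), and Rgma differed by 0.73 (SE 0.195, edgeR adjusted p = 0.0940).

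For CKD JV001 against CKD saline, 31 of the 38 were positive with a median of 0.42, and Tgfbr2 (0.93, SE 0.303) and Mgp (1.42, SE 0.496) had an edgeR adjusted p of 0.276 each. Nog, the extracellular BMP antagonist, had the smallest p, but its libraries held only 0 or 1 reads in CKD saline and 1 to 23 in CKD JV001. For CKD saline against sham saline, 24 were positive and 14 negative with a median of 0.23, led by Atoh8 (0.94, SE 0.396), Efnb2 (1.08, SE 0.490) and Mgp (1.06, SE 0.493), with an edgeR adjusted p of 0.941 each. For sham JV001 against sham saline, 25 were positive and 13 negative with a median of 0.08, led by Smurf1 (-0.34, SE 0.118), Rgma (-0.56, SE 0.194) and Hey1 (1.09, SE 0.564), with an edgeR adjusted p of 0.9997 each. Smurf1 is a ubiquitin ligase acting on SMADs, and its sham JV001 libraries read 33.5 to 37.3 CPM against 43.5 to 47.0 in sham saline. The interaction was positive in 29 and negative in 9 with a median of 0.33, led by Smurf1 (0.43), Rgma (0.60) and Gdf2 (2.24), with an edgeR adjusted p of 0.840 each. Gdf2, which encodes BMP9, was near the limit of the depth, at 2 to 46 counts per library.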

How the data were processed

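Polyadenylated RNA was measured in 12 libraries, 4 groups of 3. The deposited table holds whole-number counts per gene symbol, which the authors left unnormalised. Build GRCm39 and the tools fastp, HISAT2 and HTSeq are listed per the submitters' processing notes. For their versions, the annotation and the strandedness, the answer is not given in the sources used here, so reads of overlapping or antisense genes cannot be separated. The deposited FPKM values follow from those counts: 10249 genes had 50 or more reads everywhere, and 1 length per gene returned the FPKM in 100% of them within 0.01. Columns were tied to samples through their group initials and replicate number.

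The test was edgeR 4.0.16 (R 4.3.3) quasi-likelihood with TMM factors, filterByExpr (minimum count 10) and 1 fit of 4 group means over 12 libraries, with Benjamini-Hochberg adjustment over 15004 genes at 0.05. SE is that of the log2 fold change, and log2 CPM used a prior count of 2. Alternatives used DESeq2 1.42.0, limma 3.58.1 on log2(FPKM + 1) and log2(FPKM + 0.1), RLE factors, other filters, subsets of groups and libraries left out. A count of 0 allows 3 reads, and such limits cover counting error only. With 3 against 3 libraries an exact permutation test cannot go below 0.10, so none is given.

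The members, gene lists and settings were chosen with earlier results of these data known. Named genes are the 10 members, up to 3 pathway genes per contrast by smallest p, the 2 most abundant genes of a marker list that moves with a member, and the 5 genes with a mean of at least 1 CPM whose log2 CPM correlated most with Tmem100 or Bmp10. Gene names of the Gm, Rik and -ps kinds were not eligible for the last rule. Other genes are named after their values were seen. Of 22584 symbols, 21928 were found in the reference table. Promoters are from RefSeq GRCm38.p6, matched by symbol. Libraries of a group differed by more than counting noise (median chi-square per gene from 2.28 to 34.3, against 0.455 for counting noise alone), and each was counted separately. In both CKD groups libraries 1 and 2 were the closest pair, at 2.28 with saline and 3.69 with JV001. Each differed from library 3 by 23.7 to 34.3. These values do not show whether libraries 1 and 2 came from separate mice.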

Additional observations from a re-analysis of the deposited data

How the results depend on the processing

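Of the 9 genes other than Tmem100, edgeR called 0 in each contrast, and so did RLE factors, both other filters, DESeq2, limma on both FPKM scales, the replicate block, mitochondrial and haemoglobin genes left out, and the sums of libraries 1 and 2 in each CKD group (chosen after seeing the data). With only the groups compared, Eng passed for CKD JV001 against sham JV001 (1 gene, 0.99, edgeR adjusted p = 0.036), beside 792 of all genes tested. For CKD JV001 against CKD saline, the count was 3 without library 3 of both CKD groups and 0 to 5 over single libraries left out, 5 without CKD saline library 3. Over all genes, CKD JV001 against sham JV001 gave 3, and 7 with RLE factors, 5 with no filter, 12 with the stricter filter, 1768 with DESeq2, 0 with the replicate block, 1433 without library 3 of both CKD groups, 74 and 10 with limma on log2(FPKM + 1) and log2(FPKM + 0.1), 7 with mitochondrial and haemoglobin genes left out, 792 with only the groups compared, 0 with the summed libraries and 0 to 1612 over single libraries left out. CKD JV001 against CKD saline gave 0, and 45 with DESeq2, 3043 without both library 3 and 0 to 3287 over single libraries left out. DESeq2 gave 47 for CKD saline against sham saline and 2 for sham JV001 against sham saline, against 0 each. The causes were not tested.

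The labels do not say whether replicate numbers pair the libraries. Correlations of same-numbered deviations ran from -0.385 to 0.492, with both ends among libraries numbered 3. Of 12 libraries, 2 correlated best with their own number. With 3 libraries per group, these values cannot decide whether a number marks a shared batch. With the replicate block, Bmpr2 in CKD saline against sham saline was -0.015, and no member's call changed.

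Some small differences changed sign. Bmpr2 for CKD saline against sham saline was -0.061 and -0.078 with limma on log2(FPKM + 1) and log2(FPKM + 0.1), and the interactions of Eng, Smad6 and Smad7 were 0.24, 0.11 and 0.0499, and 0.23, 0.096 and 0.036. Without library 3 of both CKD groups, CKD saline against sham saline was -0.035 for Acvrl1, -0.16 for Bmpr2, -0.073 for Smad7 and 0.0071 for Id2, CKD JV001 against sham JV001 was -0.016 for Bmpr2, and the interactions were 0.85 for Eng, 0.28 for Smad6, 0.30 for Smad7 and 0.087 for Id1. Over single libraries left out, CKD saline against sham saline ran from -0.037 to 1.71 for Acvrl1, -0.16 to 0.18 for Bmpr2, -0.075 to 1.10 for Smad7 and -0.46 to 0.64 for Id2. CKD JV001 against sham JV001 ran from -1.88 to 0.54 for Bmp10 and -0.0079 to 0.61 for Bmpr2, and sham JV001 against sham saline from -0.18 to 1.03 for Id2. The interactions ran from -0.30 to 1.44 for Acvrl1, -0.036 to 0.57 for Bmpr2, -0.82 to 0.92 for Eng, -0.99 to 0.22 for Id1, -0.053 to 1.07 for Id3, -0.43 to 0.28 for Smad6 and -0.69 to 0.48 for Smad7. With Pecam1 and Cdh5 alone as the endothelial reference, Tmem100 stood at -3.02, -2.78, -4.10 and -5.31 in sham saline, sham JV001, CKD saline and CKD JV001.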

Other observations

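In CKD JV001, library 3 read far above the other two libraries in 2 leukocyte adhesion genes of endothelium. Selp, the adhesion receptor P-selectin, read 1.87, 2.02 and 450.3 CPM in CKD JV001 and at most 1.55 CPM in the other 9 libraries. Vcam1, another adhesion molecule, read 33.6, 33.2 and 632 CPM in CKD JV001 and 9.18, 9.90 and 44.9 in CKD saline. In the same library 3, Cldn5, a tight junction protein, read 15.9 CPM against 37.9 and 38.4 in the other two libraries, while the neutrophil marker sum was 404 CPM against 21.6 and 19.4. These genes were singled out after their values were seen.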
